A study of Mus musculus with 8 samples.

Results

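Mitochondrial ribosomal protein genes are described here as the genes whose name on the array is Mrpl or Mrps followed by a number. They were taken by name alone, and each gene was represented by the probe with its highest mean log2 level. Among 29889 gene names the array holds 77 such genes, covered by 110 probes, and all 77 were well above background on each of the 8 arrays, so that none was lost to the filter that left 15748 genes for testing. Each array measured 25 ng of RNA from CD4 T cells sorted from peripheral lymph nodes (pLN) that were pooled from 8 to 15 mice of the strain B6.Cg-Foxp3<tm1Mal>, females and males aged 8 to 14 weeks, in which Foxp3 expressing cells are green. All mice had been immunized s.c. with keyhole limpet hemocyanin and alum, and cells were taken on day 12 (d12) or day 25 (d25) p.i.

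The sort collected B220- CD4+ cells as 4 populations, which were naïve CD4 T cells (GFP-, PD1-/lo, GL7-), follicular helper cells (TFH: GFP-, PD1hi, GL7+), regulatory cells (Treg: GFP+, PD1-/lo, GL7-), and follicular regulatory cells (TFR: GFP+, PD1hi, GL7+/-). The naïve gate was set by GFP, PD1, and GL7, and each population has 1 array per day, hence 2 arrays in all and no replicate within a day. A p-value therefore sets the difference between populations against how far the d12 and d25 arrays of all 4 populations depart from a common shift of the day. This spread is shared by all comparisons of a gene and is moderated by limma toward that of all genes. Leaving out an array of 1 population therefore also affects comparisons between other populations. All d12 arrays were on slide 1, naïve CD4 T and TFH cells of d25 on slide 2, and Treg and TFR cells of d25 on slide 3. Levels are given as normalized intensity in relative units (RU), on a scale where the 75th percentile of an array is 1500, and cannot be compared between genes because probes differ in brightness.

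Mitochondria keep a ribosome of their own, which translates the few proteins that mitochondrial DNA encodes, all of them parts of the respiratory chain and ATP synthase. Its RNA comes from mitochondrial DNA, but its proteins are encoded in the nucleus, made in the cytosol, and imported. Some of them descend from proteins of the bacterial ribosome, whereas others exist in mitochondria alone, and activated T cells are known to expand this machinery when they leave quiescence.

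The labelled populations carried their defining transcripts. Foxp3 was at 37266 to 49260 RU in Treg and TFR cells against 66 to 358 RU in the other populations, and Bcl6, the lineage factor of follicular cells, was at 23711 to 112808 RU in TFH and TFR cells against 5277 to 6875 RU elsewhere. Per array, 46.3% to 50.4% of the probes were well above background. Markers of other cells were not evenly distributed. The summed level of 10 B cell genes was 18578 RU on the TFH array of d25 and 6291 to 10491 RU on the other arrays, although the gate excluded B220+ cells, while Pax5 was well above background on no array and Ebf1 on that TFH array alone. The sum of 7 genes of antibody-secreting cells was 46230 and 51507 RU in TFH cells and 22305 to 41139 RU elsewhere. Xbp1 alone made up 34806 and 42857 RU of the sums in TFH cells, whereas Prdm1 was lowest there (572 and 530 RU). Jchain and Mzb1 were highest on the naïve array of d12 (7465 and 7639 RU), against 1156 and 1351 RU on that of d25. Naïve CD4 T cells reached 30074 RU (d12) and 21088 RU (d25) for the sum of 9 myeloid genes, and the other populations 15061 to 22343 RU. Itgam alone made up 28500 and 19636 RU of the naïve sums. Lyz2 was highest on the TFH and TFR arrays of d25 (1247 and 1257 RU), and Cd14 and Adgre1 were well above background on no array. Probes differ in brightness, so these sums are not amounts of other cells. The sum of 5 CD8 T cell genes was 16674 to 19645 RU in naïve CD4 T cells and 4754 to 11585 RU in the other populations. Of 14 proliferation genes tested, 11 rose in TFH over naïve CD4 T cells and 13 in TFR over Treg cells. Over all genes these shares were 20.9% and 18.8%. Of the 14, 10 were also higher in TFR than in TFH cells and 6 in Treg than in naïve CD4 T cells. For these comparisons the shares of all genes were 11.7% and 5.91%. The part of other cells and of proliferation in the differences below was not tested.

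Between TFH and naïve CD4 T cells, mitochondrial ribosomal protein genes differed in both directions, most of them by little. Of 77 members, 11 (14.3%) were higher and 14 (18.2%) lower at a limma adjusted p below 0.05, whereas 20.9% of all genes tested were higher and 25.7% lower. With each array scaled to its 75th percentile in place of quantile normalization, 7 members were higher and 16 lower, against 3111 and 4648 of all 15748 genes. The median difference was -0.05 on the log2 scale for members and -0.07 for all genes, and the median size of a difference, regardless of sign, was 0.21 for members and 0.44 for all genes. The 95% interval of the difference lay within a factor of 2 in either direction for 73 members, against 58.5% of all genes. The median standard error was 0.09 for members and 0.13 for all genes. For bulk samples like these, fewer cells that express a gene and less of its RNA per cell cannot be told apart.

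**Figure D1:**
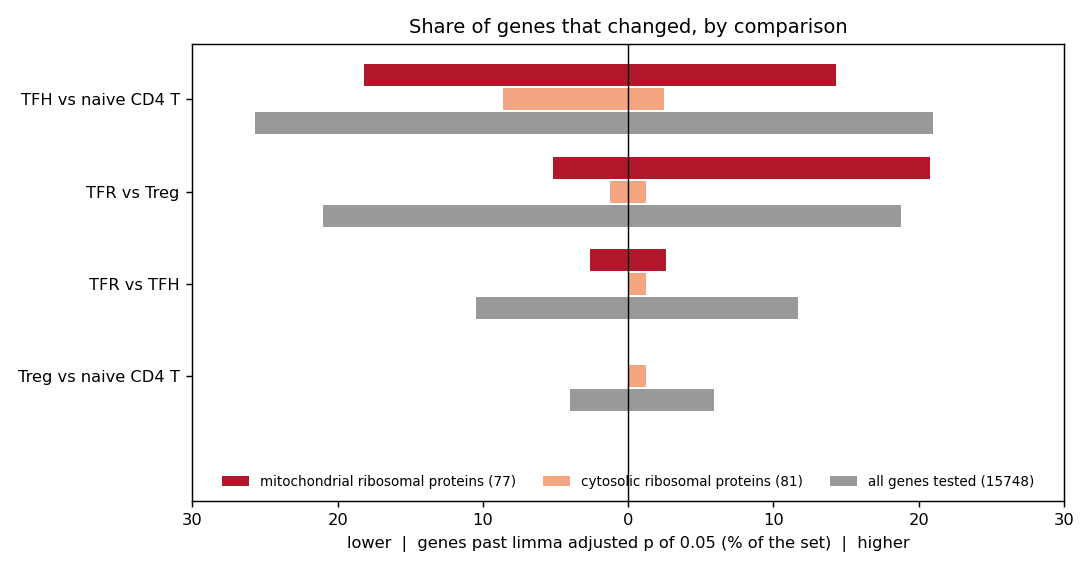
Share of genes past a limma adjusted p of 0.05 in 4 comparisons, as percent of each set, with lower genes to the left and higher genes to the right of the line at 0. Bars stand for the 77 mitochondrial ribosomal protein genes, 81 cytosolic ribosomal protein genes and all 15748 genes tested. In TFH versus naïve CD4 T cells the members reach 14.3% and 18.2%, and in Treg versus naïve CD4 T cells they have no bar.

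Mrps6 stood apart from the other members. This gene, which encodes a protein of the small subunit with a bacterial counterpart, read 15249 RU (d12) and 14601 RU (d25) for naïve CD4 T cells, whereas TFH cells gave 43686 and 39096 RU. It was at 17039 and 16385 RU in Treg cells and at 41700 and 46391 RU in TFR cells. Thus the 4 follicular arrays lay well above the 4 others at both days. The rise was 2.77-fold in TFH over naïve CD4 T cells (log2 1.47 ± 0.11, SE; n = 2 arrays each; limma adjusted p = 0.000727) and 2.63-fold in TFR over Treg cells (1.40 ± 0.11; 0.00154). Its probe lies at chr16:92112223-92112282 of build NCBI37, on the plus strand. Mrps6 was the one member whose call held under all 19 alternative settings in both comparisons, with log2 values of 1.36 to 1.56 in TFH and 1.27 to 1.52 in TFR cells.

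Mrps6 shares its start with a gene outside the family. In the RefSeq annotation of GRCm38.p6, Slc5a3, which encodes a sodium-dependent myo-inositol transporter, starts 14 bases before Mrps6 on the same strand. Such overlap is not particular to Mrps6, since 20 of the 77 members overlap another protein-coding gene on either strand. Mrpl27 overlaps Eme1, which rose as well, by 1.55 in TFH and 2.10 in TFR cells. Mrps7 (-0.02 in TFH cells) overlaps Gga3, which fell by 0.58 there, and Mif4gd, which rose by 0.94. The Slc5a3 probe read 87 and 106 RU for naïve CD4 T cells, whereas TFH cells gave 226 and 402 RU, and it was at 83 and 130 RU in Treg cells against 279 and 379 RU in TFR cells. Its levels were thus higher on each follicular array as well. The log2 difference was 1.65 ± 0.15 for TFH (limma adjusted p = 0.0014) and 1.64 ± 0.15 for TFR cells (0.00243). The bases before the Mrps6 start, with the stretch in capitals that already belongs to Slc5a3, are shown because both genes rose:
Mrps6, chr16:92058086-92058335, plus strand, GRCm38.p6: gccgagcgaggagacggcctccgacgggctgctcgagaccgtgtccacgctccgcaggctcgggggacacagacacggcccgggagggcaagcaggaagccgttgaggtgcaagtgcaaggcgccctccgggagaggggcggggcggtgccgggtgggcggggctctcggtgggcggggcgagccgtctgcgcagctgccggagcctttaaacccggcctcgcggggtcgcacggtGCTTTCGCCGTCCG

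Apart from Mrps6, the members that rose most in TFH cells were parts of the large subunit and Mrps21 of the small subunit. Mrpl51, a protein found in mitochondrial ribosomes alone, read 42474 RU at d12 and 37799 RU at d25 for naïve CD4 T cells, whereas TFH cells gave 66824 and 55347 RU. Its difference was 0.60 ± 0.09 (limma adjusted p = 0.00592). Mrps21, a counterpart of a bacterial protein of the small subunit, was at 56104 and 50923 RU against 81773 and 74170 RU, a difference of 0.54 ± 0.08 (0.00539). For both genes the TFH arrays lay above the naïve arrays without overlap. Another 3 proteins of the large subunit were among the most changed. Mrpl52 differed by 0.57 ± 0.13 (0.0193), Mrpl54 by 0.56 ± 0.10 (0.00895), and Mrpl34 by 0.49 ± 0.08 (0.00792). A second probe for Mrps21 gave 0.73.

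Mrpl30 and Mrps18b were the members that fell most in TFH cells. Mrpl30, a protein of the large subunit with a bacterial counterpart, read 32084 and 27824 RU for naïve CD4 T cells, whereas TFH cells gave 16853 and 10646 RU. It fell by 1.16 ± 0.16 on the log2 scale (limma adjusted p = 0.00464), and its second probe fell by 1.30. Mrps18b, which belongs to a family of 3 related proteins of which the others are Mrps18a and Mrps18c, was at 22004 and 23575 RU against 10999 and 13814 RU. It fell by 0.89 ± 0.13 (0.00616), and both of its other probes were lower as well, by 0.79 and 0.86. Of its relatives, Mrps18a differed by 0.04 and Mrps18c by -0.08, and neither passed the test. Mrpl9 fell by 0.65 ± 0.16 (0.0279), Mrpl35 by 0.51 ± 0.09 (0.00994), Mrps28 by 0.50 ± 0.10 (0.0135), and Mrpl48 by 0.41 ± 0.12 (0.0443). Mrpl12, which forms the stalk where translation factors bind, was 1.24-fold lower (limma adjusted p = 0.0323).

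These counts in TFH cells depended on single arrays, and so did those over all genes tested. Each fit without 1 array leaves a single array in a cell type, and fewer of all genes were called in both directions. Fewer members were lower in each such fit, and fewer were higher without either naïve array or the TFH array of d12. More members were higher without the TFH array of d25. Mrps6, Mrpl51, Mrps21, Mrpl30, and Mrps18b remained called whichever array was left out. Mrpl54 (adjusted p = 0.0643) was lost without the naïve array of d12 and Mrpl34 (0.0571) and Mrpl35 (0.0678) without that of d25. Mrps28 was lost without the naïve arrays of d12 (0.0658) or d25 (0.0821), Mrpl52 without these (0.0926 and 0.0938) or the TFH array of d12 (0.0534), and Mrpl9 without any of the naïve or TFH arrays (0.0568 to 0.126). Mrpl48 remained called in 1 of 8 such fits, the one without the TFH array of d25.

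TFR cells showed more members higher than lower when compared with Treg cells. Of 77 members, 16 (20.8%) were higher and 4 (5.19%) lower, against 18.8% and 21% of all genes tested. The share of higher members was thus near that of all genes, and that of lower members was below it. With 75th percentile scaling in place of quantile normalization, 12 members were higher and 5 lower, against 2885 and 3187 of all genes. The median difference was 0.06 for members and -0.08 for all genes, and 73 members had a 95% interval within a factor of 2. Of the 16, 7 were proteins of the large subunit with a bacterial counterpart, a class that holds 30 of the 77 members. Among these was Mrpl27, which reaches toward the catalytic center of the ribosome. Mrpl27 was at 14401 and 12383 RU in Treg cells (d12 and d25) and at 23984 and 19721 RU in TFR cells, a difference of 0.70 ± 0.08 (limma adjusted p = 0.00445). It was also higher in TFH over naïve CD4 T cells, by 0.40 ± 0.08 (0.0167). Its second probe gave 0.79 and 0.49 for these comparisons.

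Other members that rose in TFR over Treg cells were Mrpl42, by 0.63 ± 0.09 (limma adjusted p = 0.00681), Mrps36, by 0.59 ± 0.12 (0.0187), and Mrpl32, by 0.52 ± 0.15 (0.0493). Mrps36 has also been described as a subunit of the 2-oxoglutarate dehydrogenase complex of the citric acid cycle and was kept here because of its name. Mrpl35, a protein of the large subunit, was the member that fell most in TFR cells. It was at 723 and 771 RU in Treg cells and at 365 and 413 RU in TFR cells, while TFH cells lay between with 504 and 599 RU and naïve CD4 T cells had 709 and 865 RU. The decrease was 0.94 ± 0.09 (0.00266), and Mrpl35 was lower in TFR than in TFH cells too, by 0.50 ± 0.09 (0.0214). Mrpl30 fell by 0.63 ± 0.16 (0.0328), Mrps18b by 0.52 ± 0.13 (0.0352), and Mrps2 by 0.36 ± 0.08 (0.0266).

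**Figure D2:**
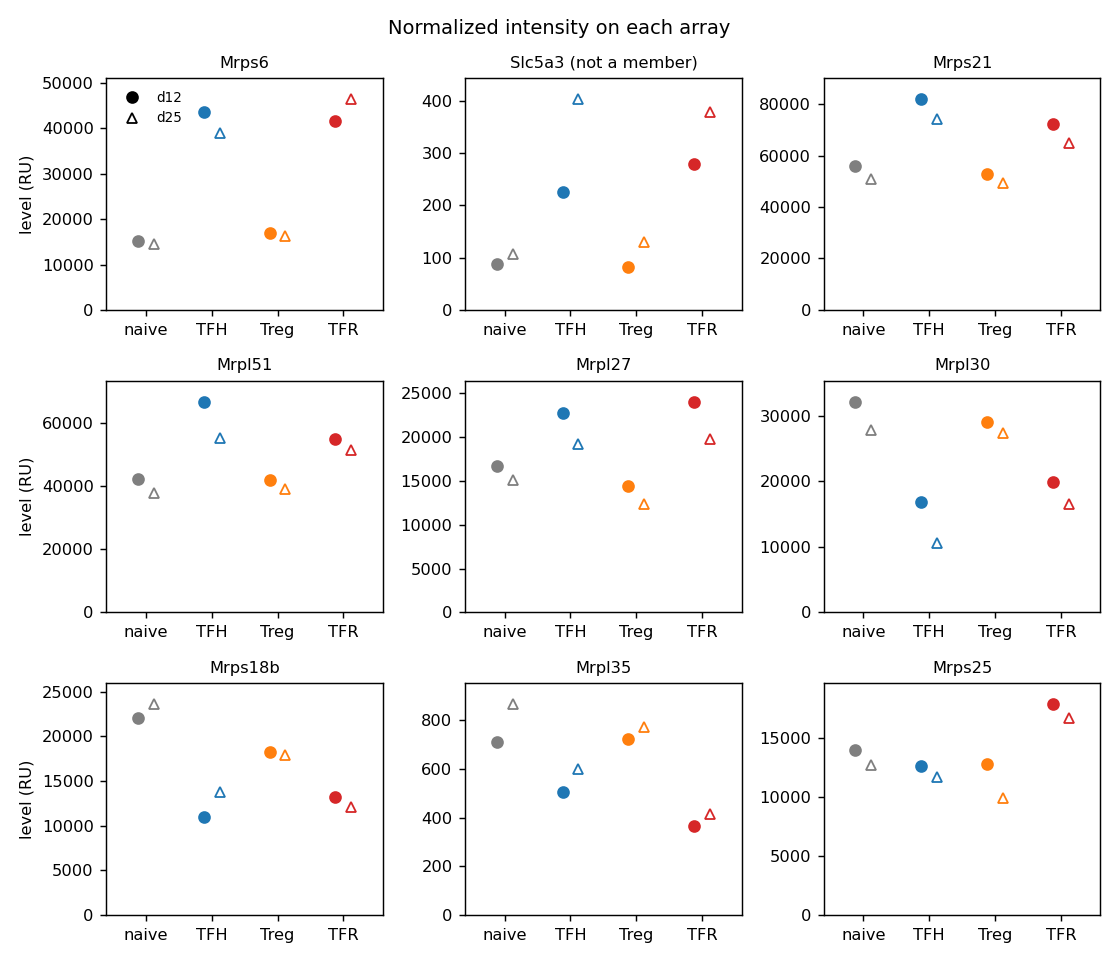
Normalized intensity in RU on each array for 8 members and for Slc5a3, which is not a member but starts next to Mrps6, with naïve CD4 T cells at the left, followed by TFH, Treg, and TFR. Filled circles are d12 and open triangles d25, 1 array each, and each panel has its own scale starting at 0. For Mrps6 the follicular arrays lie at 39096 RU and above and the others at 17039 RU and below.

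The arrays of the compared cell types weighed on these counts as well. Without any of the Treg or TFR arrays, fewer members were higher in TFR cells, and without any of the naïve, Treg or TFR arrays fewer were lower. Over all genes tested, fewer were called in both directions in these fits too. Mrps6, Mrpl27, and Mrpl35 remained called throughout. Mrpl42 was lost without the Treg array of d25 (adjusted p = 0.0547) and the TFR arrays of d12 (0.0564) or d25 (0.0526), and Mrps36 without any of the Treg or TFR arrays (0.0739 to 0.119). Mrpl30 (0.0602 to 0.167), Mrpl32 (0.0857 to 0.236), Mrps18b (0.0675 to 0.187), and Mrps2 (0.0546 to 0.146) were lost without any of the naïve, Treg or TFR arrays.

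The follicular differences of TFH and TFR cells, which come from separate arrays, ran in parallel across the members. Pearson's r was 0.83 and Spearman's rho 0.80 across 77 members, against 0.75 and 0.74 across all 15748 genes, and 61 members (79.2%) had the same sign, against 80.1% of all genes. Genes are not independent replicates, and the arrays of d12 shared a slide. Of 77 members, 12 passed the test in both comparisons, which is 48% of those called in TFH and 60% of those called in TFR cells. Over all genes these shares were 61.7% and 72.4%. All 12 had the same direction, as did 96.8% of all genes called in both. Mrpl13, Mrpl27, Mrpl34, Mrpl42, Mrpl51, Mrpl54, Mrps6, and Mrps21 were higher, and Mrpl30, Mrpl35, Mrps2, and Mrps18b were lower in both follicular populations. By contrast, 42 members (54.5%) were called in none of the 4 comparisons of cell types, against 38.8% of all genes.

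**Figure D3:**
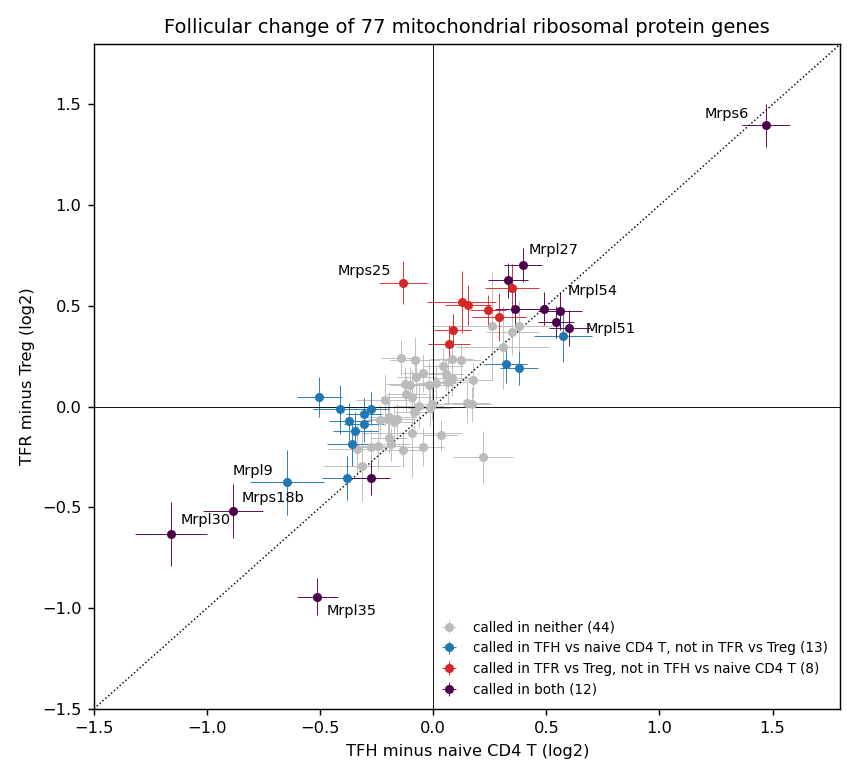
Log2 difference of TFH minus naïve CD4 T cells (horizontal axis) and of TFR minus Treg cells (vertical axis) for 77 members. Points are estimates with bars of 1 SE, colors show in which comparison a member passed the limma adjusted p of 0.05, and the dotted line marks equal differences. Mrps6 lies at 1.47 and 1.40, Mrpl30 at -1.16 and -0.63, and Mrps25 away from the line at -0.13 and 0.62.

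Mrps25, a protein of the small subunit found in mitochondria alone, was the member whose follicular difference itself differed between Foxp3+ and Foxp3- cells. It read 13990 and 12757 RU for naïve CD4 T cells, while TFH cells gave 12666 and 11712 RU, Treg cells 12805 and 9916 RU, and TFR cells 17874 and 16680 RU. The TFR arrays were the highest at both days. TFR exceeded Treg cells by 0.62 ± 0.10 (limma adjusted p = 0.0112), whereas TFH and naïve CD4 T cells differed by -0.13 ± 0.10, and the difference between these values was 0.75 ± 0.15 (0.0487). For this contrast, 1 of 77 members was higher and none lower, against 4.04% and 4.47% of all genes, and 4 members (5.19%) had an unadjusted limma p below 0.05, against 25.4% of all genes. The call was lost without each of the 8 arrays in turn (adjusted p = 0.0827 to 0.176), and the TFR over Treg call without the Treg array of d25 (0.0644) or either TFR array (0.0615 and 0.0815).

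The probes for Mrps25 disagreed. The values above come from the brighter probe, at chr6:92124834-92124893 of NCBI37 on the minus strand. A dimmer probe at chr6:92119530-92119589 read 357 and 271 RU for naïve CD4 T cells against 93 and 168 RU for TFH cells, and at 195 and 260 RU in Treg against 101 and 133 RU in TFR cells. It was thus lower on the follicular arrays, by 1.32 in TFH and by 0.96 in TFR cells. When the mean of both probes was used, TFR and Treg cells differed by -0.17. Across the 24 members with several detected probes, the median gap between probes was 0.14 in TFH and 0.16 in TFR cells, and no pair of probes was called in opposite directions. The sign differed between probes for 7 of these members in TFH and for 8 in TFR cells, and the gap exceeded 0.5 for 4 and 5. Mrpl41, a large subunit protein called higher in TFH cells (0.38 ± 0.08; limma adjusted p = 0.0200), had a second probe at -0.90 there, and in TFR over Treg cells its probes gave 0.19 and -2.07.

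TFR and TFH cells differed in few members. Mrps25 (0.50 ± 0.10; limma adjusted p = 0.031) and Mrpl37 (0.45 ± 0.09; 0.0256) were higher in TFR cells, and Mrpl35 and Mrpl57 (-0.50 ± 0.09; 0.0196) were lower. These 2 members each way compare with 11.7% and 10.5% of all genes. Mrpl37 was at 3161 and 2793 RU in TFR cells and at 2161 to 2655 RU in the others, and Mrpl57 was at 49268 and 37412 RU in TFR against 69073 and 53228 RU in TFH cells. At d25 these populations lay on different slides. With the slide in place of the day, no member was called, and 777 of all 15748 genes were higher and 591 lower, against 1840 and 1653 in the main fit. Leaving out either TFR array removed the calls named above, and fewer of all genes were called as well. Mrpl35 (adjusted p = 0.052 to 0.129) and Mrpl57 (0.0563 to 0.127) were lost without any of the TFH or TFR arrays, and Mrps25 without any of these or of the naïve arrays (0.0663 to 0.17). Mrpl37 remained called in 1 of 8 such fits, the one without the TFH array of d25, and reached 0.0605 to 0.16 in the others.

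In Treg versus naïve CD4 T cells, none of the 77 members was called, against 5.91% of all genes higher and 3.99% lower. At an unadjusted limma p below 0.05 there were 8 (10.4%), against 27.4% of all genes. These 8 were lower in Treg cells, led by Mrpl57 (-0.34 ± 0.09; limma adjusted p = 0.0828) and Mrps28 (-0.34 ± 0.10; 0.103). The 95% interval lay within a factor of 2 for each of the 77 members. The one-way model with Tukey's adjustment called none, against 54 of all genes higher and 26 lower. An intensity trend in the prior called 2 members lower, against 850 of all genes.

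At d25 the members tended to lie below d12 without passing the test. None of 77 was called, against 0.0191% of all genes higher and 0.0508% lower, and 25 (32.5%) had an unadjusted limma p below 0.05, against 28.9% of all genes. The median difference was -0.11 for members and 0.00 for all genes. Members were lower at d25 in 59 of 77 cases in naïve CD4 T, 49 in TFH, 48 in Treg, and 56 in TFR cells, which was not counted over all genes. The median difference of members in these populations was -0.10, -0.12, -0.05, and -0.13, and that of all genes 0.00, 0.00, 0.01, and 0.00. Mrps24 (-0.37 ± 0.06; limma adjusted p = 0.071) and Mrpl34 (-0.32 ± 0.06; 0.0714) were the lower and Mrpl50 (0.37 ± 0.07; 0.0725) the higher member with the smallest p. Day and slide cannot be told apart.

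**Figure D4:**
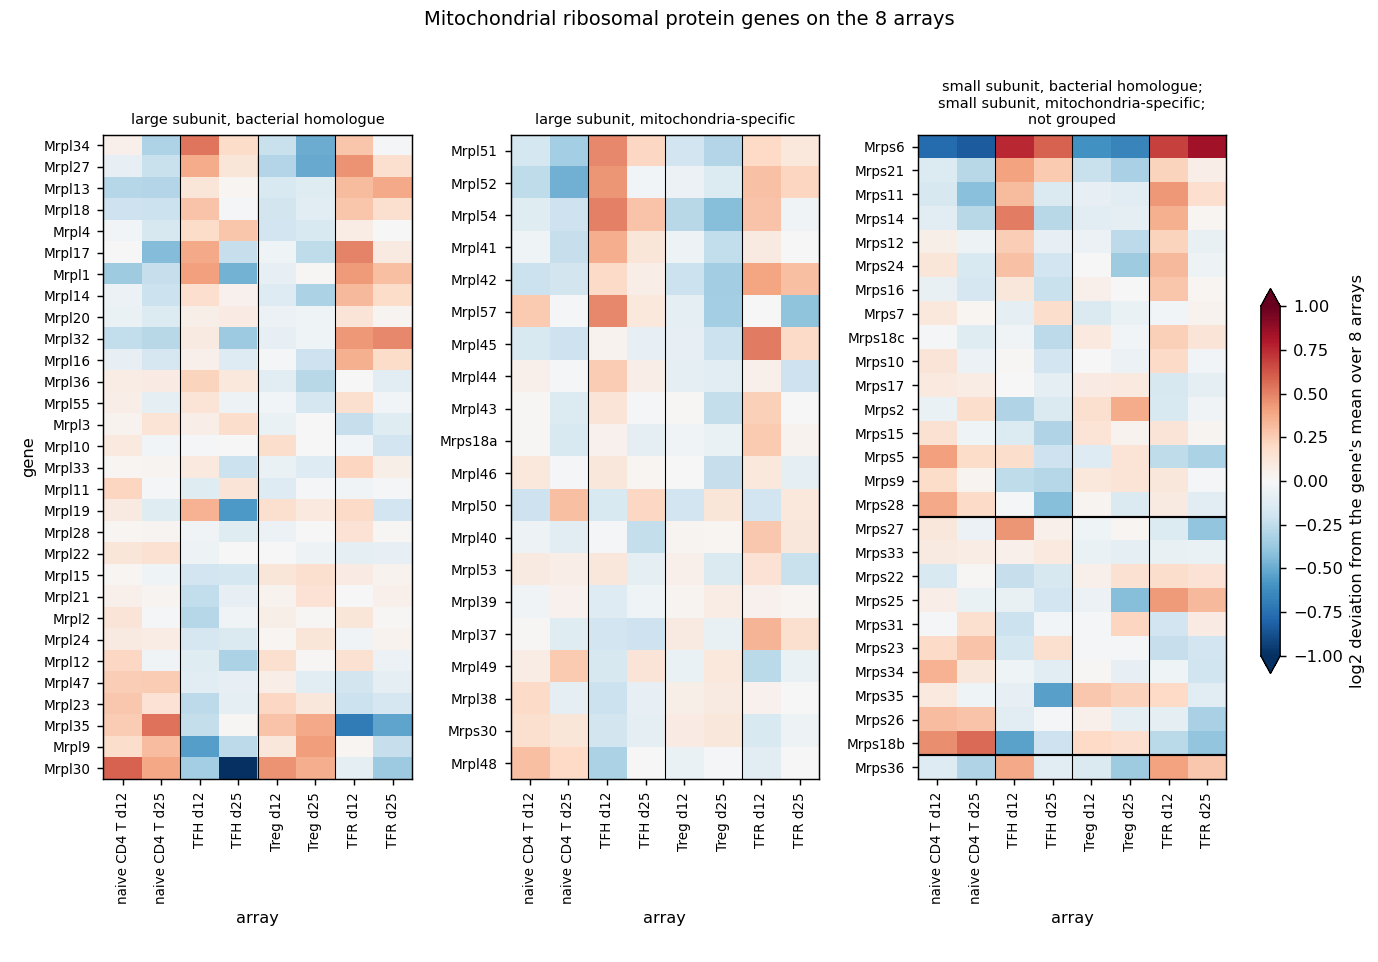
Log2 deviation of each of the 77 members from its own mean over the 8 arrays (color, red above and blue below, with the scale ending at 1 and -1), with arrays as columns and genes as rows. Genes are grouped by subunit and by whether a bacterial counterpart exists, and ordered within a group by the difference of TFH minus naïve CD4 T cells. Mrps6 is red on the 4 follicular arrays and blue on the others, Mrpl30 shows the reverse, and most rows are pale.

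The changed members were spread over both subunits, and the counts below stand against 20.9% higher and 25.7% lower of all genes in TFH and 18.8% and 21% in TFR cells. Among 30 proteins of the large subunit with a bacterial counterpart, 4 were higher and 6 lower in TFH cells and 7 higher and 2 lower in TFR cells. Of 20 large subunit proteins specific to mitochondria, 5 were higher and 1 lower in TFH and 4 higher and none lower in TFR cells. In the small subunit, 2 of 16 proteins with a bacterial counterpart were higher and 4 lower in TFH, against 3 and 1 in TFR cells. For the 10 mitochondria-specific proteins of the small subunit there were none and 3 in TFH, and 1 and 1 in TFR cells. TFR cells had the highest level of the 4 populations at both days for 22 members, naïve CD4 T cells for 13, TFH cells for 12, and Treg cells for 4. This order was not counted over all genes, so it cannot be read as a trait of the members.

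Genes that build or serve the mitochondrial ribosome were called in both directions, as were all genes tested, of which 20.9% were higher and 25.7% lower in TFH and 18.8% and 21% in TFR cells. Of 25 assembly factors, 2 (8%) rose and 10 (40%) fell in TFH and 2 (8%) rose and 7 (28%) fell in TFR cells, with medians of -0.29 and -0.16. Mrm1, which methylates the RNA of the large subunit, fell by 1.31 ± 0.10 in TFH (limma adjusted p = 0.000832) and by 0.88 ± 0.10 in TFR cells (0.00396), and Ddx28, a helicase needed for the large subunit, rose by 1.12 ± 0.13 (0.00279) and 0.76 ± 0.13 (0.0112). Of 15 translation factors, 1 (6.67%) rose and 5 (33.3%) fell in TFH cells, and none rose and 1 (6.67%) fell in TFR cells. Among 6 proteins of the mitochondrial ribosome with other names, Gadd45gip1 (-0.53 ± 0.11; 0.0147) and Ptcd3 (-0.43 ± 0.08; 0.0121) fell in TFH cells, and Ptcd3 also fell in TFR cells.

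Genes that maintain and transcribe mitochondrial DNA were called in both directions. Of 17 genes for upkeep and transcription of mitochondrial DNA, 2 (11.8%) rose and 6 (35.3%) fell in TFH and 1 (5.88%) rose and 7 (41.2%) fell in TFR cells, to be read against the same shares of all genes. Peo1, the helicase of mitochondrial DNA, fell by 0.73 ± 0.15 (limma adjusted p = 0.0159) and 0.87 ± 0.15 (0.012), whereas Slirp, which stabilizes mitochondrial mRNA, rose by 0.49 ± 0.09 (0.0133) and 0.61 ± 0.09 (0.00881). Among 10 genes listed as mitochondrial mRNAs, ND3 rose in TFH cells by 0.42 ± 0.10 (0.025), but the array annotation places its probe at chr1:24619613-24619672 of NCBI37 and those of the other 9 on mitochondrial DNA. ND4L fell in TFR cells by 0.72 ± 0.17 (0.0266). Of 81 cytosolic ribosomal protein genes, 2 rose and 7 fell in TFH and 1 rose and 1 fell in TFR cells, with a median size of a difference of 0.07 in both.

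**Figure D5:**
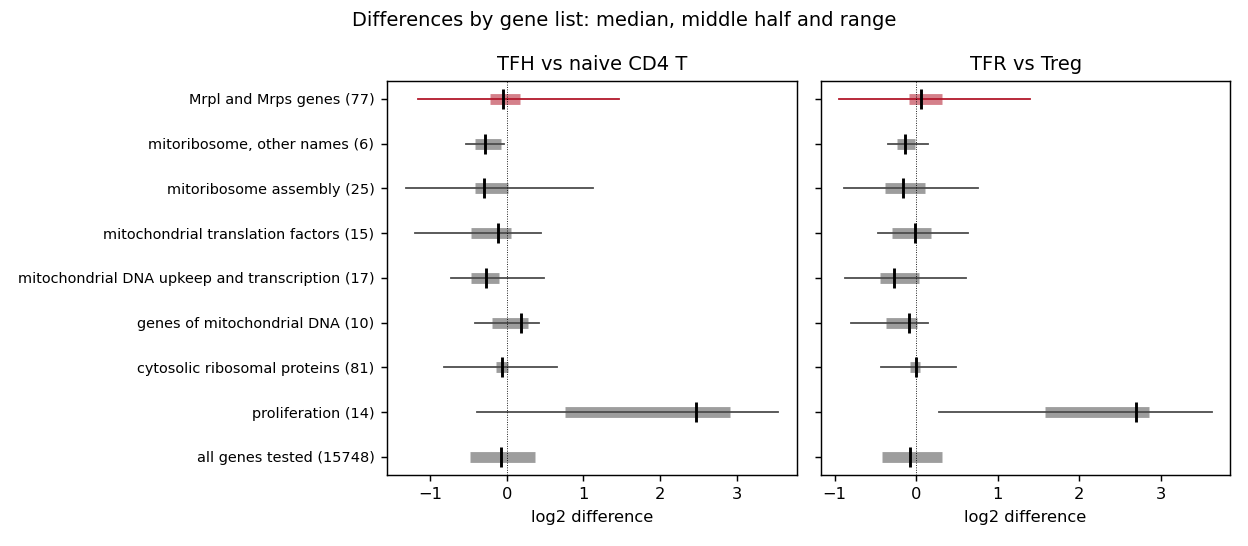
Log2 difference of TFH versus naïve CD4 T cells (left) and TFR versus Treg cells (right) by gene list, with the number of genes tested in parentheses. Black ticks are medians, thick bars run from the lower to the upper quartile and thin lines show the range, which is not drawn for all genes. Medians of the members are -0.05 and 0.06 and those of the 14 proliferation genes 2.46 and 2.70.

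Of 10 transcription regulators known to drive nuclear genes for mitochondria 8 were tested. None was called higher in TFH or TFR cells, against 20.9% and 18.8% of all genes. In each comparison 2 (25%) were called lower, near the 25.7% and 21% of all genes, and a list this short does not set the regulators apart. Myc, a driver of growth in activated T cells, was the one with the largest difference. Myc read 8505 and 9137 RU for naïve CD4 T cells against 1662 and 1117 RU for TFH cells, and at 12885 and 14170 RU in Treg against 5987 and 5072 RU in TFR cells. It fell by 2.69 ± 0.20 in TFH (limma adjusted p = 0.00077) and by 1.29 ± 0.20 in TFR cells (0.00869). Pprc1, a coactivator, fell by 0.81 ± 0.20 in TFH cells (0.0256), and Yy1 fell by 0.30 ± 0.08 in TFR cells (0.0423). Nrf1 differed by -0.38 ± 0.12 (0.0556) and -0.33 ± 0.12 (0.0878), Gabpa by 0.16 ± 0.15 (0.43) and -0.18 ± 0.15 (0.382), Gabpb1 by -0.33 ± 0.12 (0.0711) and -0.16 ± 0.12 (0.315), Gabpb2 by -0.43 ± 0.36 (0.366) and -0.40 ± 0.36 (0.414), and Esrra by 0.11 ± 0.10 (0.421) and -0.05 ± 0.10 (0.732). Ppargc1a was well above background on no array and Ppargc1b on 1.

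The promoters of members were searched for the letters that these factors bind. RefSeq windows of GRCm38.p6 from 250 bases before to 50 bases after the start were at hand for 68 of 77 members, in 74 windows. Both strands were searched for GCGCA followed by any base and GCGC (Nrf1), CCGGAAG (Ets factors including Gabpa), AAGATGG (Yy1), and CACGTG (E-box, the site of Myc). The Nrf1 letters were in 17.6% of the member windows and in 4.6% of all 32851 windows, or 9.37% of those of genes tested. For the Ets letters these shares were 33.8%, 8.86%, and 16.8%, for Yy1 17.6%, 6.34%, and 7.03%, and for the E-box 9.46%, 7.15%, and 9.77%. Members that rose in TFH or TFR cells held the Nrf1 letters in 5 of 16 windows, those that fell in 5 of 15, and those called in neither in 3 of 43. These are descriptions of letters in a window. The upstream bases of 5 members called in both follicular populations, apart from Mrps6, are shown with motif letters in capitals, and where no letters are in capitals none of the motifs was found in those 250 bases:
Mrps21 (higher), chr3:95871515-95871764, minus strand: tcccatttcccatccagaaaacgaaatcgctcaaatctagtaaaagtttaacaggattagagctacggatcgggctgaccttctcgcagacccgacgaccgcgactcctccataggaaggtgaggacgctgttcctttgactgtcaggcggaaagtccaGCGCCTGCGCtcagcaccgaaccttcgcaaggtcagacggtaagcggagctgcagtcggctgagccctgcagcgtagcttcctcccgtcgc
Mrpl51 (higher), chr6:125191950-125192199, plus strand: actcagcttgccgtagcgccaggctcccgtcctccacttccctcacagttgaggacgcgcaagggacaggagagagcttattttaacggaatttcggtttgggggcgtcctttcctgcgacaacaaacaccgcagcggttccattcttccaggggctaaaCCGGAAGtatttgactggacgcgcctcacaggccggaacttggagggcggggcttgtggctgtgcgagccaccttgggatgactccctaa
Mrpl30 (lower), chr1:37890227-37890476, plus strand: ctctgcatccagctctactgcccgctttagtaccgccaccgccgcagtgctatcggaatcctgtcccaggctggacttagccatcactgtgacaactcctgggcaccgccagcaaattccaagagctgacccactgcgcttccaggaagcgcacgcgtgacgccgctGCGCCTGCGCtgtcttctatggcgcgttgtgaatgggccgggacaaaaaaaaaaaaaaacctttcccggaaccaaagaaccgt
Mrps18b (lower), chr17:35916441-35916690, minus strand: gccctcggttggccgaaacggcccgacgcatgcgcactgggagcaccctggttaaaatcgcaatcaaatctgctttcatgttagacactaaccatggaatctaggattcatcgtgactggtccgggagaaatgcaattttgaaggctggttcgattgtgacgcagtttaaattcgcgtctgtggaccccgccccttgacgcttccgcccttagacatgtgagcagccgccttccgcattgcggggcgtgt
Mrpl35 (lower), chr6:71823785-71824034, minus strand: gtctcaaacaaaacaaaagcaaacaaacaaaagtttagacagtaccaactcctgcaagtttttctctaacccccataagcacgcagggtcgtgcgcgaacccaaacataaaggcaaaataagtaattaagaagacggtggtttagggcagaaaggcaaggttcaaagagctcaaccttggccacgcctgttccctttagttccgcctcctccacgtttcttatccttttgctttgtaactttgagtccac
The Nrf1 letters thus stood before a member that rose, Mrps21, and before a member that fell, Mrpl30, while Mrpl51 held the Ets letters. In the 50 bases after the start, which are not shown, Mrps21 and Mrps18b held the Ets letters and Mrpl35 the Yy1 letters.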

How the data were processed

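RNA of 8 sorted T cell pools was measured on 8 single-color Agilent arrays, and the authors deposited the scanner output as spot intensity (Agilent Feature Extraction 10.7.3.1) with a table of their processed values. RNA had been amplified from poly(A) tails, so that probes far from a 3' end can read low. Following the methods of the study, spots flagged as outliers, spots beyond 1.42 times the interquartile range, and spots with a pixel CV above 0.5 were left out, and the 4 spots of each of 39429 probes were averaged geometrically. Values were quantile normalized, scaled so that the 75th percentile was 1500, and set to at least 20. Between 86.45% and 89.18% of spots per array were retained, and r with the authors' processed intensity was 0.9994. The number of arrays limits the precision. Probe positions are those of NCBI37.

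A gene was tested if its probe was well above background on more than 50% of spots, in at least 1 cell type on each of its arrays. Log2 intensity was fitted with limma 3.58.1 (R 4.3.3, the package data.table in version 1.17.8) as cell type plus day, with 3 residual degrees of freedom, and p-values were adjusted by Benjamini-Hochberg over all 15748 genes. The code was tested on simulated data. Members and gene lists were chosen with earlier results of these data known, and Mrpl57 was moved to the mitochondria-specific large subunit proteins after the files were read. Mrps30 and Mrps18a were counted with the large subunit and Mrps36 with neither. Named members were, among those called, up to 6 most changed in each direction for the comparisons of cell types, and up to 4 in each direction for the interaction and for d25 versus d12. Members with the highest and lowest levels were not named, since probes differ in brightness. In addition, Mrps18a, Mrps18c, Mrpl12, and Mrpl41 were named after their values were seen. Members that were not called were named outside this rule, which were Mrpl57 and Mrps28 for Treg versus naïve CD4 T cells and Mrps24, Mrpl34, and Mrpl50 for d25 versus d12. Mrm1 and Ddx28 of the assembly factors were named outside it as well. The 19 alternatives included normexp background correction, 75th percentile scaling, the authors' values, all spots, the mean over probes, and a stricter filter and none. Further ones were slide in place of day, no day term, an intensity trend in the prior, a one-way model with Tukey's adjustment, and leaving out each of 8 arrays. The methods name the one-way test, but here Tukey's p-values were also adjusted by Benjamini-Hochberg over all genes.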

Additional observations from a re-analysis of the deposited data

Results flagged for a closer look

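Mrps25 differed between the Foxp3+ and the Foxp3- populations in its follicular difference, by the limma interaction of cell lineage and follicular state (0.75 on the log2 scale, adjusted p = 0.0487). TFR minus Treg was 0.62 and TFH minus naïve CD4 T was -0.13, at n = 2 arrays each. By day, the difference between both values was 0.62 at d12 and 0.87 at d25. It did not pass the threshold without any single one of the 8 arrays (adjusted p = 0.0827 to 0.176), and the dimmer probe of the gene gave 0.36 for the same contrast, with the opposite sign of the TFR minus Treg difference (-0.96).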

How the results depend on the processing

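Among the called members, Mrps6 held under all 19 alternatives in both follicular comparisons. In TFH versus naïve CD4 T cells, 11 members were higher and 14 lower. Over all genes, 3299 were higher and 4048 lower, against 2681 and 2844 without a day term and 1258 and 956 with Tukey's adjustment. With 75th percentile scaling, 3111 of all genes were higher, and with slide in place of day 3562 were lower. The higher count of members was 7 with 75th percentile scaling, 5 without a day term, and 2 with Tukey's adjustment. Their lower count was 6 with slide in place of day, 6 without a day term, and 0 with Tukey's adjustment. Without single arrays these counts were 4 to 14 and 2 to 9. In TFR versus Treg cells (16 higher, 4 lower), they were 7 and 2 without a day term, 2 and 0 with Tukey's adjustment, and 2 to 20 and 1 to 5 without single arrays. Over all genes, TFR versus Treg cells gave 2268 and 1986 without a day term and 555 and 339 with Tukey's adjustment (2954 and 3308 in the main fit). In TFR versus TFH cells (2 and 2), the higher count of members was 6 with normexp, 5 with the authors' values, 4 with all spots, and 1 with the mean of probes. It was 7 with the stricter filter, 6 without a filter, and 13 with an intensity trend. The lower count was 4 with normexp, 4 with the stricter filter, 5 without a filter, and 7 with a trend. Both were 0 with slide in place of day, without a day term, and with Tukey's adjustment, and 0 to 3 and 0 to 2 without single arrays. Over all genes, TFR versus TFH cells gave 1840 higher and 1653 lower in the main fit, 2110 and 1827 with normexp, and 2258 and 2013 with a trend. The stricter filter gave 1501 and 1488 of 13285 genes, and no filter 879 and 766 of 29889. Slide in place of day gave 777 and 591 of all genes, no day term 1228 and 987, and Tukey's adjustment 226 and 199. In Treg versus naïve CD4 T cells, no member was lower, against 1 with normexp and 2 with a trend. Over all genes, 807 and 850 were lower there (628 in the main fit). The interaction (1 higher) gave 0 with the mean of probes, without a filter, with slide in place of day, and without a day term, and 2 with a trend. Over all genes these counts were 609, 210, 310, 376, and 870 (637 in the main fit). For d25 versus d12 (0 each), 1 was higher with normexp, with the stricter filter, and with a trend, and 4, 4, and 5 were lower. Over all genes, 543, 526, and 713 were higher there and 350, 330, and 432 lower (3 and 8 in the main fit). The cause was not tested. With the mean over its probes, Mrps25 reversed in TFR versus Treg cells (-0.17, adjusted p = 0.452), since its probes differ in sign.

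Tukey's adjustment was not run for the interaction, and the day contrast cannot be had with it, with slide in place of day, or without a day term. The day, which arrays of all cell types share, is a term of the model, so the comparisons are already paired by day. With 2 arrays a cell type, taken at different days, many small differences could go undetected, although some were called, such as Mrps2 in TFR versus Treg cells (-0.36). The median half-width of the 95% interval for members was 0.24 on the log2 scale in the comparisons of cell types.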
